A study of Mus musculus with 12 samples.

Results

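Type I interferon-stimulated genes are the antiviral genes that cells switch on when interferon alpha or beta binds its receptor. The set described here holds 39 such genes of the mouse, chosen by symbol from knowledge of the pathway, with earlier results of these data known. All 39 were found among the 55414 gene identifiers of the count table, and all 39 passed the filter on low counts and were among the 14919 genes tested. RNA was sequenced from primary hepatocytes of mouse liver in 12 libraries, 3 for each of 4 groups: Hnf4a KO cells with MJ041, Hnf4a KO cells with DMSO vehicle, WT cells with MJ041 and WT cells with DMSO vehicle. HNF4A is a nuclear receptor on which the hepatocyte programme depends, MJ041 has no description beyond its code name, and the title of the series sets the study in HNF4A dysfunction and sepsis. The labels do not give the method or exons of the deletion, the age of the mice, or the dose and duration of treatment. Nothing says that replicates came from separate animals, so p-values measure the spread between libraries, which may be technical. In KO cells some genes, given under other observations, went with the replicate number, and the source of the spread was not tested.

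Interferon receptors activate the kinases JAK1 and TYK2, which phosphorylate STAT2. STAT2 acts with IRF9 in a complex that binds interferon-stimulated response elements near the target genes. The products sense viral nucleic acid, carry the signal further, modify proteins, degrade RNA or stop translation. In liver both hepatocytes and the resident macrophages, the Kupffer cells, can express them.

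Promoter sequence was read to show the letters that such an element would need. RefSeq promoter windows of GRCm38.p6, each running from 250 bases before to 50 bases after a gene's start, were matched by symbol for 29 of the 39 genes. Dhx58, Zbp1, Usp18, Oas2, Mx1, Mx2, Parp9, Parp14, Ifi27 and Rtp4 were not among those. The core searched was GAAA, any 2 bases and GAAA again, on both strands (on the other strand it reads TTTC, any 2 bases, TTTC), and neighbouring matches may share a GAAA. It stood in the windows of 14 of the 29 genes, against 3.99% of all genes with a window and 3.44% of all 32851 promoter windows of this length. The 4 windows below belong to the genes with the smallest p-values in WT cells with MJ041 among those 14. Ifi47, Ifi44 and Oasl2 had smaller p-values than these 4, and their windows did not hold these letters. Each is printed from 5′ to 3′ on the strand of its gene, with the matching letters in capitals.
Stat2: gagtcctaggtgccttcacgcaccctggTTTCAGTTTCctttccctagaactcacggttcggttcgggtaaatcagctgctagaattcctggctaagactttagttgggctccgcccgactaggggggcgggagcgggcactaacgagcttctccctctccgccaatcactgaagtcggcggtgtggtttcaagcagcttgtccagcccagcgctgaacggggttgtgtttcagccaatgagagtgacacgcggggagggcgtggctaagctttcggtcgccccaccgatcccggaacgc
Oas1a: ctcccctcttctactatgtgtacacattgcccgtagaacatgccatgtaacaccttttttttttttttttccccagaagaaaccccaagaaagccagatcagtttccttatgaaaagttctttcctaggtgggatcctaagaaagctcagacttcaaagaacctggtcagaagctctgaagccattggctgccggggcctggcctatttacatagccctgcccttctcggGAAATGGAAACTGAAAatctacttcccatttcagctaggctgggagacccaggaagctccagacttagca
Ifit1: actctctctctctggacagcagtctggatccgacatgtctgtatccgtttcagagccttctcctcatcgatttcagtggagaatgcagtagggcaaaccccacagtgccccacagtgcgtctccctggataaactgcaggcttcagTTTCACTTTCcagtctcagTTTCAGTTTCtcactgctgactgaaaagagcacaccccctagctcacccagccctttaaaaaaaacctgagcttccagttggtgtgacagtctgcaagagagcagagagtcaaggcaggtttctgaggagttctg
Ddx58: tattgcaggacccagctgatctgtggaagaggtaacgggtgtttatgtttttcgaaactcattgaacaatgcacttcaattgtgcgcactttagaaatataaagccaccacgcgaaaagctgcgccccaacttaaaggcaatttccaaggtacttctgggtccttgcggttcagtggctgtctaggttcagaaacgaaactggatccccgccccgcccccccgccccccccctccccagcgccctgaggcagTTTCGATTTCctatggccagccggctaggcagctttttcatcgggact
The Stat2 window lies at chr10:128270248-128270547 on the plus strand, and its match begins 222 bases before the start. The last bases of this window were not found near the start of a reference transcript of the gene, unlike those of the Oas1a, Ifit1 and Ddx58 windows. Its distance is therefore less certain. The Oas1a window lies at chr5:120907476-120907775 on the minus strand and holds 2 matches that share a GAAA, the nearer one 14 bases before the start. The Ifit1 window lies at chr19:34640639-34640938 on the plus strand, with matches 104 and 85 bases before the start. The Ddx58 window lies at chr4:40239776-40240075 on the minus strand, with a match 3 bases after the start. Other windows held runs of several matches, and 4 of these are shown next.
Isg15: GAAAAGGAAACCGAAACAGAAA
Bst2: GAAAATGAAACTGAAA
Ifit3: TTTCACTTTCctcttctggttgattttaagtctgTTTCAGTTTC
Ifit3b: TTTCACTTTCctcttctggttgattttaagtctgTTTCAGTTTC
Isg15 carried 3 matches chained within 22 bases, and Bst2 carried 2 matches in 16 bases. Ifit3 and Ifit3b, a pair of close paralogs on chromosome 19, shared an identical run of 44 bases with 2 matches 34 bases apart. A match is a description of these letters and does not show that a factor binds there.

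The libraries held between 16740761 and 17902832 counts, and the lowest count of any of the 39 genes in any library was 50, for Oas2. Hnf4a (ENSMUSG00000017950) checks the genotype label and stood at 59.9, 76.0 and 66.7 CPM in KO with MJ041, 61.1, 67.8 and 66.4 CPM in KO with vehicle, 166, 178 and 142 CPM in WT with MJ041, and 121, 137 and 112 CPM in WT with vehicle. Every KO library was below every WT library (KO against WT with vehicle: log2 fold change -0.92 ± 0.10 (SE), edgeR adjusted p = 8.9e-06). Such an order of KO below WT libraries held for 31.5% of all genes tested with vehicle and 29.8% with MJ041. Hnf4a RNA was thus lower in KO cells and not absent. CPM is the count scaled to a common library total after TMM scaling, and it was compared between libraries within a gene, not between genes. Hepatocyte markers such as albumin were abundant in all groups, with a summed level over 12 markers of 29103 to 30155 CPM in KO with MJ041, 27757 to 32765 CPM in KO with vehicle, 59546 to 76829 CPM in WT with MJ041 and 58126 to 63889 CPM in WT with vehicle. Several of the 39 genes have close relatives (Ifit3 and Ifit3b, Mx1 and Mx2, Oasl1 and Oasl2, Oas1a and other Oas1 genes, Trim30a and other Trim30 genes), and how shared reads were counted is not given in the sources used here, so their values are uncertain to that extent.

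The mean level of 34 of the 39 genes was lowest in WT with MJ041, and none was highest there. Over all genes tested, 24.1% had their lowest mean in that group and 28.2% their highest. This is an order of group means, and single WT libraries with MJ041 and with vehicle overlapped for part of the genes. The other 5 had their lowest mean in KO cells, 3 of them with MJ041 and 2 with vehicle. For the 39 genes libraries of each KO group lay close together, with a median coefficient of variation of 5.48% with MJ041 and 6.22% with vehicle. Libraries of the WT groups were further apart, at 14.7% with MJ041 and 14.5% with vehicle. Within WT with MJ041, replicate 3 was highest for 37 of the 39 genes and replicate 2 lowest for 31. Within WT with vehicle, replicate 2 was lowest for all 39. These orders of libraries were not counted over all genes tested.

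**Figure D1:**
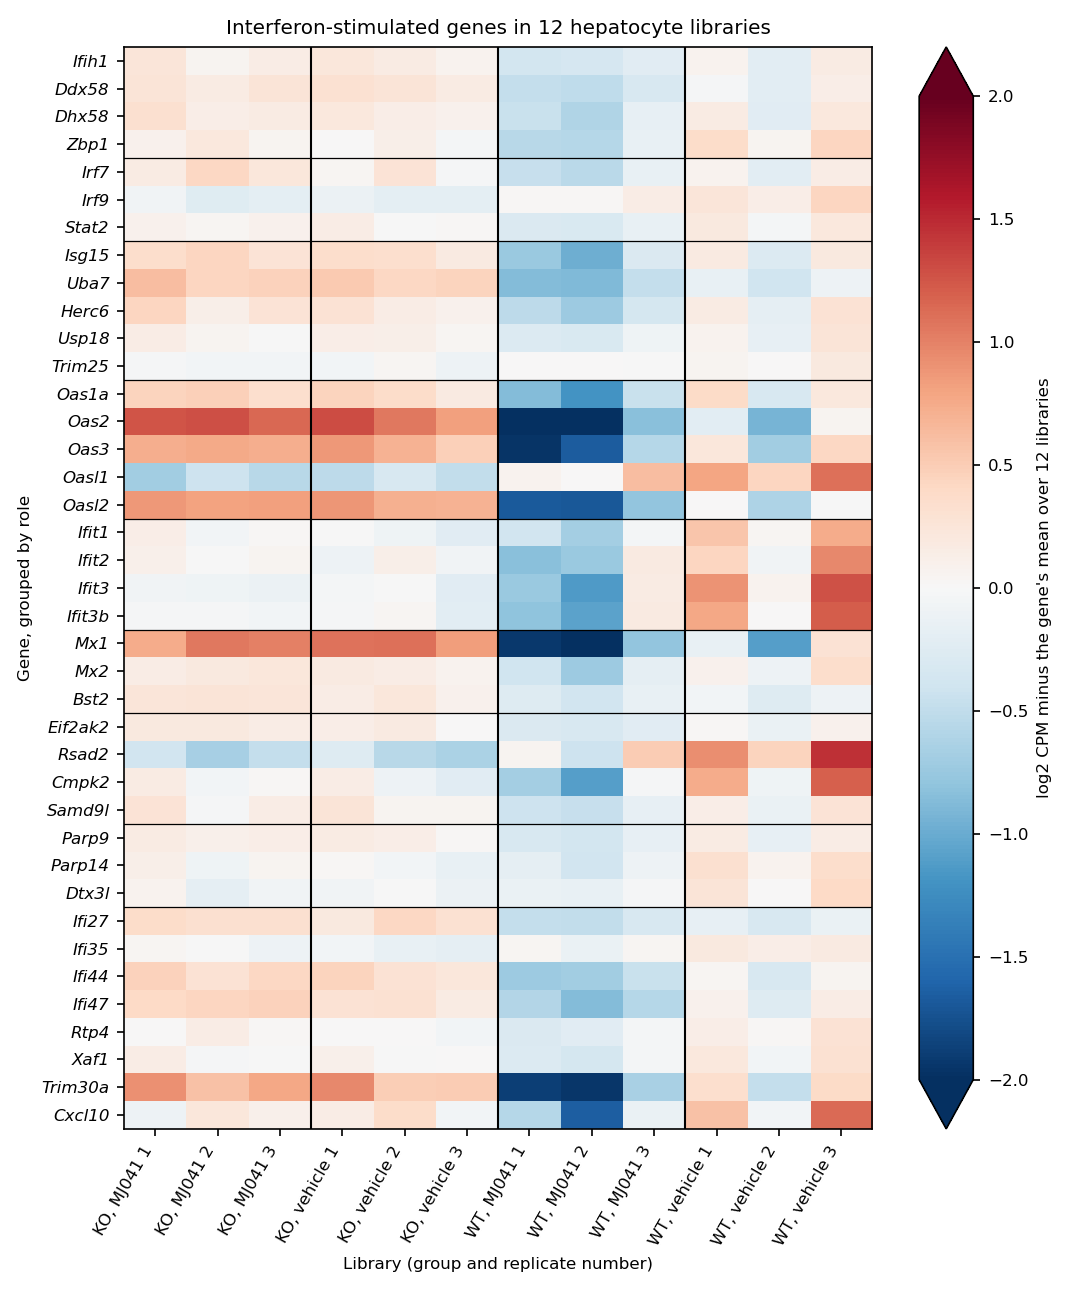
Heat map of log2 CPM of the 39 genes (down the page, grouped by role) in the 12 libraries (across), each gene centred on its mean over the libraries, with the colour scale in log2 units clipped at 2 on either side. The WT columns with MJ041 are the lowest for most genes, most of all replicates 1 and 2, and vehicle-treated WT replicate 2 is paler or bluer than its 2 neighbours in all rows.

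The question of the next comparison was what MJ041 did to these genes in WT cells. With MJ041, 18 of the 39 fell and 0 rose (edgeR quasi-likelihood test, adjusted p below 0.05), where 1.02% of all genes tested were called as lower, 1.19% as higher and 2.21% in either direction. All 39 had a log2 fold change below 0, against 44.4% of all genes. The median was -0.54, against 0.03 over all genes tested, and the range ran from -1.49 for Trim30a to -0.09 for Trim25. A fall of at least 2-fold was estimated for 9 of the 39, against 3.37% of all genes. For 24 of the 39 every MJ041 library was below every vehicle library, which held in this direction for 9.22% of all genes. Fewer cells of a type and less RNA per cell cannot be told apart in these bulk samples.

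Of 4 sensors of viral nucleic acid, edgeR called 2 as lower. Zbp1, which senses left-handed nucleic acid and can trigger cell death, had 130.0, 129.6 and 173 CPM with MJ041, against 246, 198 and 257 CPM with vehicle. The groups did not overlap, and the vehicle library nearest to the treated ones was replicate 2. The log2 fold change was -0.70 ± 0.12 (SE, 3 libraries per group), with an edgeR adjusted p of 0.029, the smallest reached by any gene in this comparison. Ddx58, which encodes the RNA sensor RIG-I, had 143, 140.1 and 159 CPM with MJ041, against 194, 170.5 and 217 CPM with vehicle, again without overlap (-0.40 ± 0.08, edgeR adjusted p = 0.037). The RNA sensor Ifih1 (MDA5) and its relative Dhx58 (LGP2) had log2 fold changes of -0.33 and -0.45 and did not pass (edgeR adjusted p = 0.066 and 0.063).

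Of the 3 transcription factors, Stat2 was called. It had 214, 212 and 235 CPM with MJ041, against 297, 252 and 302 CPM with vehicle, and all treated libraries were lower (-0.37 ± 0.07, edgeR adjusted p = 0.034). Irf7, the factor that amplifies interferon production, had 388, 368 and 482 CPM with MJ041, against 560.3, 459 and 592 CPM with vehicle. Here treated replicate 3 lay above vehicle replicate 2, and the difference did not pass (-0.38 ± 0.12, edgeR adjusted p = 0.11). Irf9, the DNA-binding partner of STAT2, had a log2 fold change of -0.21 (edgeR adjusted p = 0.14).

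In the ISG15 system, in which a ubiquitin-like protein is joined to other proteins, 3 of 5 genes fell. Isg15, the modifier itself, had 204, 172 and 279.9 CPM with MJ041, against 387, 282 and 391 CPM with vehicle. Treated replicate 3 and vehicle replicate 2 nearly met, without overlap (-0.69 ± 0.16, edgeR adjusted p = 0.043). Herc6, the main ligase of ISG15 in mouse, had 45.5, 39.2 and 50.8 CPM with MJ041, against 72.9, 57.4 and 79.2 CPM with vehicle, with all treated libraries lower (-0.63 ± 0.12, edgeR adjusted p = 0.034). Uba7, the activating enzyme, also fell, by 0.52 on the log2 scale. Usp18, which removes ISG15 and dampens receptor signalling, and the ubiquitin ligase Trim25 did not pass in edgeR, DESeq2 or limma voom, at -0.28 and -0.09.

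The oligoadenylate synthetase family, of which some members make the messenger that activates RNase L, had a median log2 fold change of -1.15. Of its 5 genes 2 were called. Oasl2 had 43.9, 43.4 and 82.0 CPM with MJ041, against 142, 92.1 and 140.4 CPM with vehicle, so that its mean with MJ041 was 56.4 ± 22.1 CPM and with vehicle 125 ± 28.4 CPM (SD, n = 3). The groups did not overlap (-1.15 ± 0.22, edgeR adjusted p = 0.032). Oas1a, whose promoter is printed above, fell by 0.92. Oas2 and Oas3 had larger log2 fold changes, -1.38 and -1.32, with wide standard errors of 0.36 and 0.32, and did not pass (edgeR adjusted p = 0.063 and 0.051). Oasl1, which in mouse limits the translation of IRF7, had 253, 243 and 371 CPM with MJ041, against 417, 325 and 517 CPM with vehicle, with overlap, and did not pass (-0.54 ± 0.17, edgeR adjusted p = 0.10).

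Among the 4 IFIT genes, whose products bind viral RNA, the median was -1.04 and 2 were called. Ifit1, which recognises RNA without methylation of its cap, had 172, 139 and 216 CPM with MJ041, against 325, 229.9 and 371 CPM with vehicle. It did not overlap (-0.81 ± 0.17, edgeR adjusted p = 0.037). Ifit3 had 277, 212 and 522 CPM with MJ041, against 863, 487 and 1129 CPM with vehicle. Treated replicate 3 exceeded vehicle replicate 2, although the fit called the gene (-1.29 ± 0.30, edgeR adjusted p = 0.049). Its paralog Ifit3b and Ifit2 had log2 fold changes of -1.20 and -0.88 and did not pass in edgeR, while DESeq2 and limma voom called Ifit3b.

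Of the membrane and dynamin-like effectors, Mx2 was called and Bst2 and Mx1 were not. Mx2 had 50.9, 40.4 and 59.1 CPM with MJ041, against 71.0, 62.2 and 85.0 CPM with vehicle, without overlap (-0.54 ± 0.12, edgeR adjusted p = 0.045). Bst2, the tether that holds budding viruses at the cell surface, had 426, 389 and 459.6 CPM with MJ041, against 486, 426 and 471 CPM with vehicle. These groups overlapped (-0.12 ± 0.07, edgeR adjusted p = 0.36). Mx1, a GTPase that traps viral components, had a log2 fold change of -1.28 (edgeR adjusted p = 0.066).

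Among effectors on translation and nucleotides, Cmpk2 and Eif2ak2 fell. Cmpk2, a mitochondrial nucleotide kinase, had 119, 89.4 and 188 CPM with MJ041, against 320.0, 181 and 436 CPM with vehicle. Treated replicate 3 lay slightly above vehicle replicate 2 (-1.24 ± 0.29, edgeR adjusted p = 0.045). Rsad2 encodes viperin, which makes a chain-terminating nucleotide, and had 1207, 876 and 1658 CPM with MJ041, against 2213, 1579 and 3209.7 CPM with vehicle. It overlapped in the same pair of libraries and did not pass (-0.90 ± 0.24, edgeR adjusted p = 0.068). Eif2ak2, the kinase PKR that halts translation, fell by 0.27, and Samd9l, a restrictor of translation, had a log2 fold change of -0.44 (edgeR adjusted p = 0.057).

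Parp14, an enzyme of ADP-ribosylation, had 353, 305 and 371 CPM with MJ041, against 497, 418 and 510.1 CPM with vehicle, and fell without overlap (-0.47 ± 0.09, edgeR adjusted p = 0.033). Its relative Parp9 and the ubiquitin ligase Dtx3l, partners in a complex, had log2 fold changes of -0.34 and -0.33 and did not pass in edgeR or limma voom, while DESeq2 called both. Among the 8 remaining genes 4 fell. Ifi47, a GTPase of the immunity-related family, had 31.6, 25.9 and 31.9 CPM with MJ041, against 50.1, 39.3 and 52.4 CPM with vehicle, and the smallest p-value of the 39 genes (-0.67 ± 0.10, edgeR adjusted p = 0.029). Ifi44 had 108, 111 and 132 CPM with MJ041, against 185, 145 and 186 CPM with vehicle, also without overlap (-0.56 ± 0.10, edgeR adjusted p = 0.032). Trim30a, which in mouse restrains inflammatory signalling, fell by 1.49 and Rtp4, a chaperone of receptor transport, by 0.33. Cxcl10, a chemokine that attracts T cells (-1.28), Xaf1, a partner of the apoptosis inhibitor XIAP (-0.38), Ifi27 (-0.22) and Ifi35 (-0.19) did not pass in edgeR, while DESeq2 called Cxcl10 and Xaf1.

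**Figure D2:**
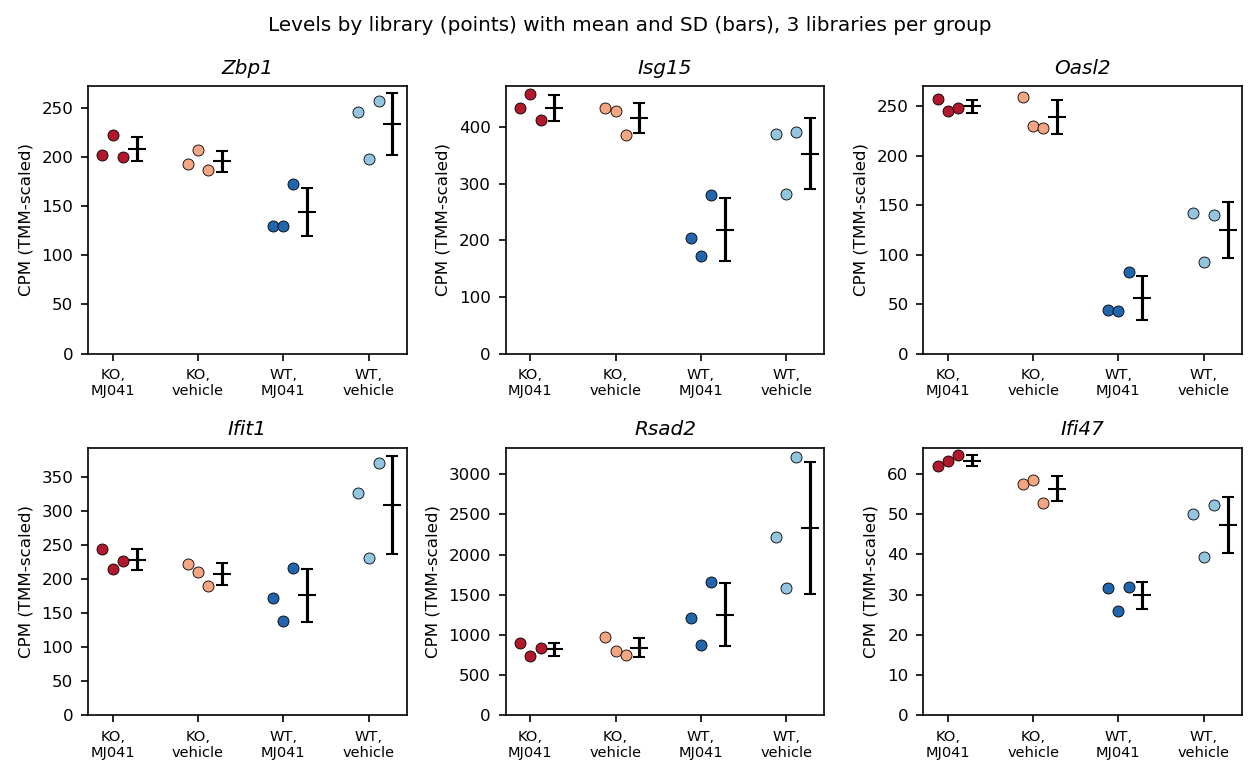
CPM of 6 of the genes in each library (points) with the mean and SD of the 3 libraries per group (bars), each panel on its own linear axis from 0. Zbp1, Isg15, Oasl2, Ifit1 and Ifi47 have no overlap between WT libraries with MJ041 and with vehicle, while in Rsad2 the highest treated library (1658 CPM) is above the lowest vehicle library (1579 CPM).

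The number of calls rested on single libraries. In edgeR it was 0 of 39 without treated WT replicate 2, without vehicle-treated WT replicate 1 or 3, without KO replicate 3 with MJ041, or without KO replicate 1 or 3 with vehicle, and in these fits 34 to 37 of the 39 had an unadjusted p below 0.05 and a median between -0.56 and -0.43. It was 1, for Ifi47, without treated WT replicate 1, 10 without KO replicate 2 with MJ041, 6 without KO replicate 2 with vehicle, 34 without vehicle-treated WT replicate 2 and 35 without treated WT replicate 3. With all libraries 37 of the 39 passed at an unadjusted p below 0.05 in edgeR, against 9.47% of all genes in this direction. DESeq2 called 31 and limma voom 20. Shares of all genes belong to the edgeR fit with all libraries, and none is given for the other fits. Beside the 18 genes of edgeR, DESeq2 called Ifih1, Dhx58, Irf7, Oas2, Oas3, Ifit3b, Mx1, Rsad2, Samd9l, Parp9, Dtx3l, Xaf1 and Cxcl10, and limma voom called Oas3 and Ifit3b.

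Markers of other liver cells mostly moved in the same direction in WT cells with MJ041. Hepatocyte markers mostly moved the other way: of 12 tested, 1 had a log2 fold change below 0 (median 0.18), and edgeR called 0. Of 15 Kupffer and macrophage markers 14 had a log2 fold change below 0 (median -0.60). Their summed level was 455 to 676 CPM with MJ041, against 571 to 867 CPM with vehicle. Cd14 made the largest part of this sum, with 273, 216 and 278 CPM with MJ041 and 299, 306 and 334 CPM with vehicle. Cd5l, a smaller part, had 4.33, 16.1 and 53.9 CPM with MJ041, against 26.0, 18.7 and 73.7 CPM with vehicle. Of 15 endothelial markers 13 were below 0 (median -0.72), with sums of 193 to 354 CPM with MJ041 and 303 to 487 CPM with vehicle. Of 12 tested stellate and fibroblast markers 8 were below 0 (median -0.42), with sums over all 15 of 94.6 to 153 CPM with MJ041 and 151 to 187 CPM with vehicle. Of the 42 tested Kupffer, endothelial and stellate markers edgeR called 0 (16 had an unadjusted p below 0.05), DESeq2 called 3 and limma voom 2. None was at 0 in either group. Over all genes tested, 44.4% had a log2 fold change below 0 and 21.6% an unadjusted edgeR p below 0.05 in either direction. The 10 lymphocyte, plasmacytoid dendritic and neutrophil markers summed to at most 1.06 CPM with MJ041 and 1.55 CPM with vehicle, with Cd3d, Ncr1 and S100a9 at 0 in both.

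The mean log2 CPM of the 45 Kupffer, endothelial and stellate markers was 1.81, 2.25 and 3.27 in WT replicates 1 to 3 with MJ041, against 2.96, 2.73 and 3.43 with vehicle. The mean log2 CPM of the 39 interferon-stimulated genes in the same libraries was 6.61, 6.49 and 7.05 with MJ041, against 7.46, 7.06 and 7.62 with vehicle. Treated replicate 3 thus had a marker level inside the range of the vehicle libraries, and a mean of the 39 genes just below that of the lowest vehicle library. With the marker level as a covariate edgeR called 0 of the 39 (33 at an unadjusted p below 0.05), and the median log2 fold change was -0.39. Treated replicates 1 and 2 were the lowest of all libraries in the mean level of the Kupffer, endothelial and stellate lists alike. Without them the median log2 fold change was -0.30. In that fit a single treated WT library remains, taken to vary as the other groups do. The part of these cells in the result was not tested beyond these values.

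**Figure D3:**
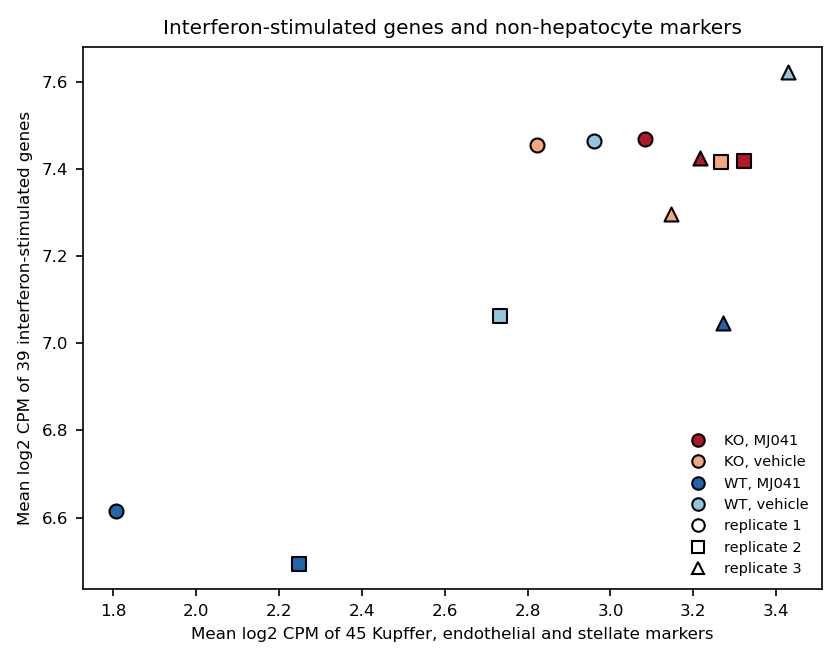
Mean log2 CPM of the 39 interferon-stimulated genes (vertical axis) against the mean log2 CPM of 45 Kupffer, endothelial and stellate markers (horizontal axis), 1 point per library, with colour for the group and shape for the replicate number. WT replicates 1 and 2 with MJ041 are low on both axes (6.61 and 6.49 against 1.81 and 2.25), and WT replicate 3 with MJ041 is among the other libraries in markers (3.27) with 7.05 for the interferon-stimulated genes.

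In KO cells the same comparison gave no call. In edgeR 0 of the 39 were called with MJ041, as were 0% of all genes tested. The count at an unadjusted p below 0.05 was also 0, against 2.77% of all genes, and DESeq2 and limma voom called 0 of the 39 too. Log2 fold changes were above 0 for 30 of the 39, against 52.4% of all genes. They had a median of 0.06 and ran from -0.10 for Oasl1 to 0.18 for Irf7. Only Ifi47 and Bst2 had all treated libraries above all vehicle libraries, as did 5.13% of all genes.

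The 3 smallest unadjusted p-values in KO cells belonged to Ifi35, Ifi47 and Irf7. Ifi35, a partner of the interferon-induced protein NMI, had 148, 145 and 135 CPM with MJ041, against 139, 131 and 129 CPM with vehicle, with overlap (0.10 ± 0.06, edgeR adjusted p = 1). Ifi47 had 62.0, 63.3 and 64.7 CPM with MJ041, against 57.6, 58.6 and 52.9 CPM with vehicle (0.17 ± 0.10, edgeR adjusted p = 1). Irf7 had 597, 710.5 and 624 CPM with MJ041, against 548, 642 and 520.4 CPM with vehicle, and these overlapped (0.18 ± 0.12, edgeR adjusted p = 1). Standard errors in KO were close to those in WT, since both come from the spread shared by all 12 libraries. Isg15 had 433, 458 and 412 CPM with MJ041, against 433, 429 and 386 CPM with vehicle, and Oasl2 had 257, 245 and 248 CPM with MJ041, against 259, 230.3 and 228 CPM with vehicle. Both pairs of groups overlapped.

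**Figure D4:**
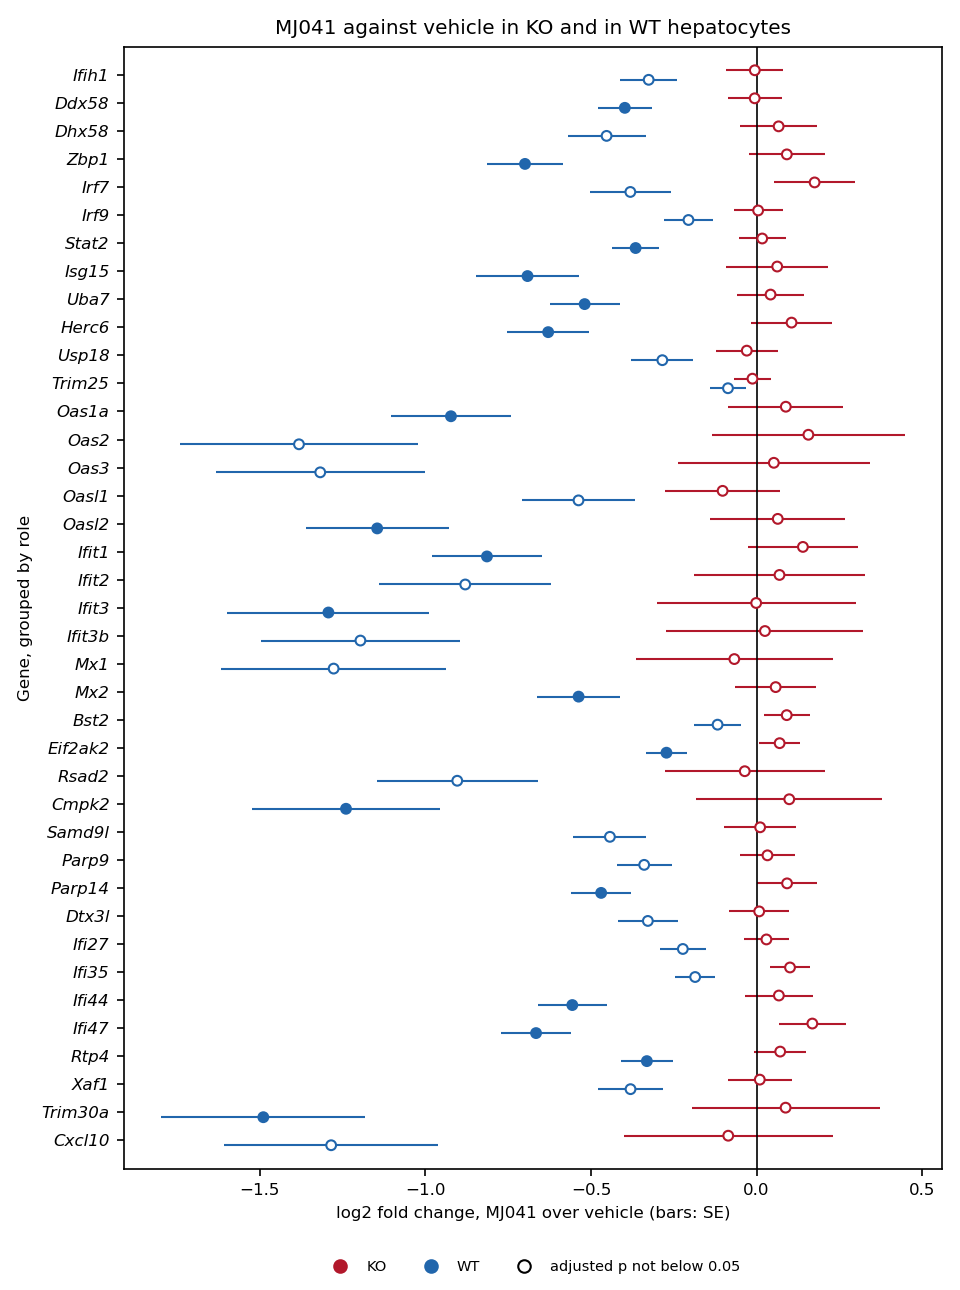
Log2 fold changes of MJ041 over vehicle for the 39 genes (points) with their SE (bars) in KO (red) and WT (blue) cells, filled where the edgeR adjusted p was below 0.05. All WT points are below 0, 18 of them filled, and the KO points lie between -0.10 and 0.18 with none filled.

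Whether the response to MJ041 differed by genotype was tested as the KO response minus the WT response. In edgeR 0 of the 39 were called, as were 0% of all genes tested. An unadjusted p below 0.05 was reached by 34 of the 39, all with a larger value in KO, against 5.68% of all genes in this direction. DESeq2 called 11 of the 39 and limma voom 0. Without the filter on low counts edgeR called 30, with the replicate number as a block 0, and with such a block within each genotype, chosen after seeing the data, 32. All 39 differences were above 0, against 47% of all genes, with a median of 0.56 against -0.02 over all genes, and they ran from 0.07 for Trim25 to 1.58 for Trim30a. Whether single genes passed this test thus depended on the filter, the tool and the block. The shares of all genes come from the first edgeR fit, and none is given for the others.

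The smallest p-values of this test belonged to Ifi47, Zbp1 and Parp14. For Ifi47 the log2 fold change was 0.17 in KO and -0.67 in WT, a difference of 0.83 ± 0.15 (edgeR adjusted p = 0.12). For Zbp1, KO libraries had 202, 223 and 199.95 CPM with MJ041, against 193, 207 and 187 CPM with vehicle, and the difference between responses was 0.79 ± 0.16 (edgeR adjusted p = 0.12). For Parp14, KO libraries had 431, 377 and 414 CPM with MJ041, against 404, 383 and 359 CPM with vehicle, and the difference was 0.56 ± 0.13 (edgeR adjusted p = 0.14). KO libraries of Zbp1 and Parp14 overlapped between treatments, while their WT libraries did not. Without treated WT replicate 3 edgeR called 26 of the 39 differences, all higher in KO, and without vehicle-treated WT replicate 2 it called 1, that of Ifi47.

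KO cells were also compared with WT cells under vehicle, which asks how the deletion alone stood with these genes. Here 8 of the 39 rose and 10 fell in KO, where edgeR called 27.5% of all genes as higher and 26.9% as lower, so the share called was below that of all genes (54.5%). The median log2 fold change was 0.03, against -0.002 over all genes. KO and WT libraries did not overlap, in either direction, for 20 of the 39, against 63.1% of all genes. The calls ran in opposite directions between gene families and inside them. The WT vehicle libraries are the same ones that served the MJ041 comparison in WT.

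Oas2 (1.38), Mx1 (1.22), Oasl2 (0.94), Uba7 (0.67), Ifi27 (0.51), Ifi44 (0.39), Bst2 (0.29) and Ddx58 (0.27) rose in KO. Ifi27, a small membrane protein induced by interferon, had 119, 138 and 128 CPM in KO with vehicle, against 93.0, 82.98 and 94.8 CPM in WT with vehicle. Every KO library was higher (0.51 ± 0.07, edgeR adjusted p = 4.3e-05). Uba7 had 132, 122 and 126 CPM in KO with vehicle, against 83.3, 69.8 and 85.7 CPM in WT with vehicle, also without overlap (0.67 ± 0.10, edgeR adjusted p = 1.2e-04). Oasl2 had 259, 230.3 and 228 CPM in KO with vehicle, against 142, 92.1 and 140.4 CPM in WT with vehicle (0.94 ± 0.21, edgeR adjusted p = 0.0019). Its KO libraries were all above the WT ones.

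Rsad2 (-1.47), Oasl1 (-1.24), Ifit3 (-0.92), Ifit3b (-0.80), Cmpk2 (-0.76), Ifit1 (-0.58), Irf9 (-0.44), Parp14 (-0.31), Ifi35 (-0.29) and Dtx3l (-0.29) fell in KO. Oasl1 had 168, 194 and 172 CPM in KO with vehicle, against 417, 325 and 517 CPM in WT with vehicle, without overlap (-1.24 ± 0.17, edgeR adjusted p = 5.8e-05). It moved opposite to its paralog Oasl2. Rsad2 had 974, 796 and 753 CPM in KO with vehicle, against 2213, 1579 and 3209.7 CPM in WT with vehicle, and all KO libraries were lower (-1.47 ± 0.25, edgeR adjusted p = 2.4e-04). Of the 4 IFIT genes 3 fell in edgeR, and Ifit2 did not pass (-0.51). Without vehicle-treated WT replicate 2 the split in edgeR was 5 higher and 16 lower, with a median of -0.12. Of the 42 non-hepatocyte markers tested edgeR called 12 in this comparison, against 54.5% of all genes tested. They ran both ways, with 2 higher and 2 lower of 15 Kupffer markers and 1 higher and 1 lower of 15 endothelial markers. Of 12 tested stellate markers 3 were higher and 3 lower in KO.

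Under MJ041 the genotypes differed in 29 of the 39 genes, 27 higher and 2 lower in KO, where edgeR called 26.8% of all genes as higher, 27.6% as lower and 54.4% in either direction. The median log2 fold change was 0.50, against 0.02 over all genes. KO and WT libraries did not overlap, in either direction, for 31 of the 39, against 59.2% of all genes. This comparison shares its WT libraries with the MJ041 comparison in WT and is not a separate set of samples. Oas2 had the largest value at 2.91, followed by Mx1 (2.43), Oasl2 (2.15), Trim30a (2.12) and Oas3 (2.00). All 4 sensors rose in KO, as did 4 of the 5 genes of the ISG15 system and all 3 membrane and dynamin-like effectors. So did 4 of the 5 genes of the synthetase family. Of the 4 IFIT genes edgeR, DESeq2 and limma voom called 0, with log2 fold changes of 0.38 to 0.43, and Ifit1 alone had an unadjusted p below 0.05.

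Uba7 had 141, 124 and 128 CPM in KO with MJ041, against 50.8, 49.8 and 66.0 CPM in WT with MJ041. These groups were far apart (1.23 ± 0.11, edgeR adjusted p = 8.8e-07). Ifi27 had 134, 129.6 and 129.9 CPM in KO with MJ041, against 74.9, 74.3 and 82.9 CPM in WT with MJ041 (0.76 ± 0.07, edgeR adjusted p = 1.5e-06). Ifi47 had 62.0, 63.3 and 64.7 CPM in KO with MJ041, against 31.6, 25.9 and 31.9 CPM in WT with MJ041, again without overlap (1.09 ± 0.10, edgeR adjusted p = 2.2e-06). Oasl1 (-0.80) and Irf9 (-0.23) fell in KO. Rsad2 had a log2 fold change of -0.60 and did not pass (edgeR adjusted p = 0.0503).

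Of the 42 non-hepatocyte markers tested edgeR called 14 here, against 54.4% of all genes tested. In KO 3 of 15 Kupffer markers rose and 2 fell, 3 of 15 endothelial markers rose, and 6 of 12 tested stellate markers rose. Among all genes tested 26.8% were called as higher and 27.6% as lower. Summed levels of the Kupffer list were 613 to 625 CPM in KO with MJ041 and 455 to 676 CPM in WT with MJ041. Within this sum Mpeg1 had 277, 284 and 282 CPM in KO, against 53.3, 68.2 and 115 CPM in WT. Cd14 went the other way, with 118, 93.3 and 106 CPM in KO, against 273, 216 and 278 CPM in WT. Sums of the endothelial list were 318 to 386 CPM in KO and 193 to 354 CPM in WT. Those of the stellate list were 168 to 196 CPM in KO and 94.6 to 153 CPM in WT. Without WT replicates 1 and 2 with MJ041 edgeR called 17 of the 39 genes as higher and 3 as lower in KO, with a median of 0.30, and with the marker level as a covariate 23 as higher and 3 as lower, with a median of 0.35. The part of these cells in the result was not tested beyond these values.

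**Figure D5:**
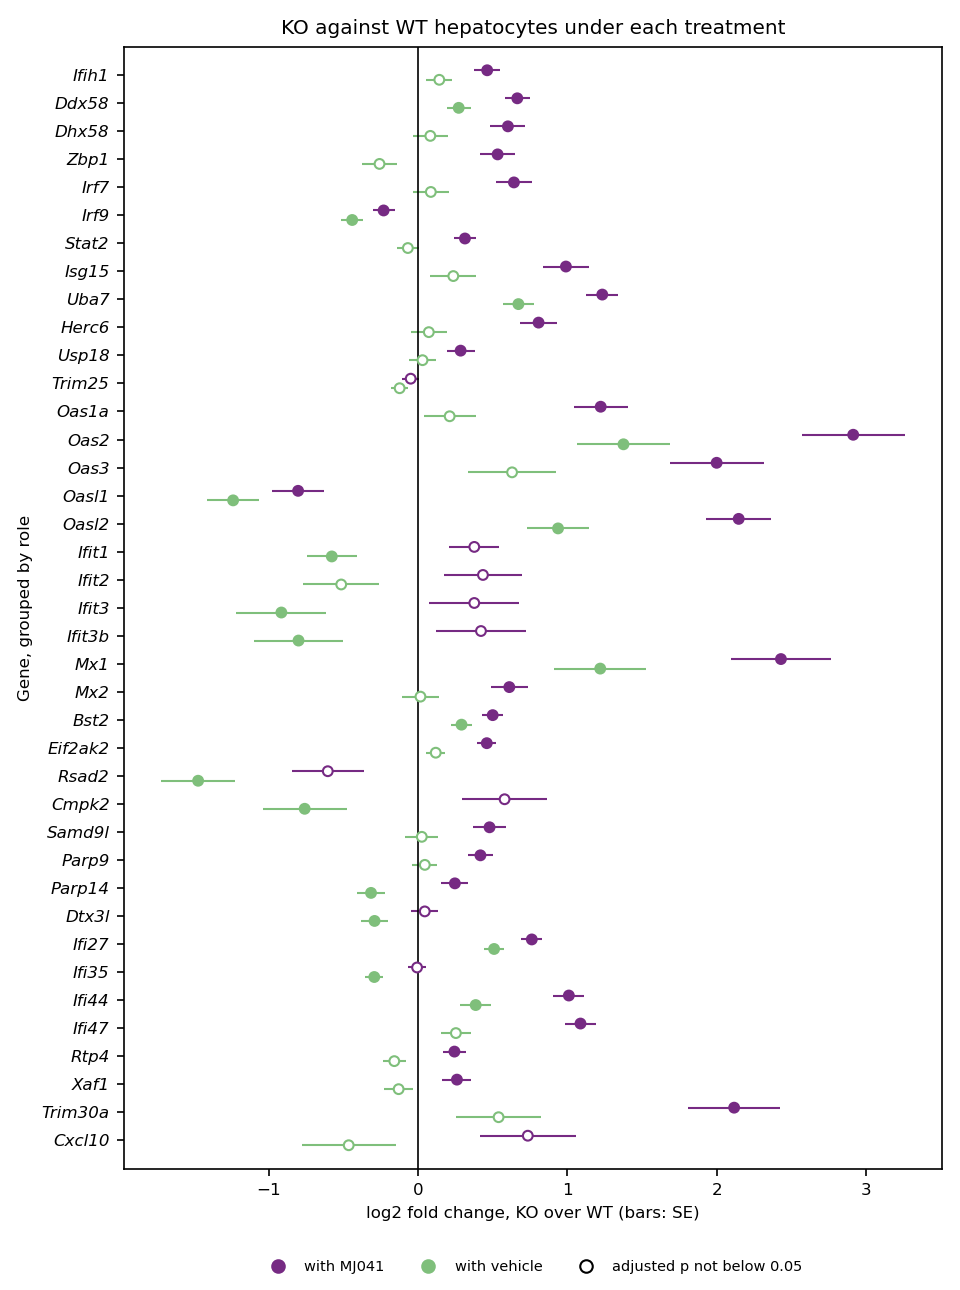
Log2 fold changes of KO over WT for the 39 genes (points) with their SE (bars), with MJ041 (purple) and with vehicle (green), filled where the edgeR adjusted p was below 0.05. With MJ041 27 filled points lie above 0 and 2 below, and with vehicle 8 lie above and 10 below. Each treatment has its own WT and KO libraries.

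Other genes of the pathway were read from lists chosen with earlier results of these data known. Their counts stand beside 1.02% of all genes called by edgeR as lower in WT with MJ041, and 54.5% called in either direction in KO against WT with vehicle. Interferon genes themselves were barely detected: the 12 listed had 9, 3 and 10 counts in KO with MJ041, 7, 7 and 10 in KO with vehicle, 13, 19 and 18 in WT with MJ041, and 48, 24 and 27 in WT with vehicle. Ifnk, the interferon kappa gene, was the only one tested. It had 0.0589, 0.0572 and 0.0584 CPM in KO with MJ041, 0.286, 0 and 0.112 CPM in KO with vehicle, 0.371, 0.801 and 0.591 CPM in WT with MJ041, and 1.82, 0.955 and 0.883 CPM in WT with vehicle. Every treated WT library was below every vehicle WT library, and the difference did not pass (-1.04 ± 0.45, edgeR adjusted p = 0.21). In KO against WT with vehicle it fell by 3.13 (edgeR adjusted p = 5.4e-04).

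Of 13 receptor and JAK-STAT genes edgeR called 1 as lower and 0 as higher in WT cells with MJ041, while DESeq2 called 2 and limma voom 2. Irf1, an interferon-induced transcription factor on this list, had 51.5, 39.4 and 47.5 CPM in WT with MJ041, against 60.7, 54.3 and 63.2 CPM in WT with vehicle. The groups did not overlap, and the difference did not pass (-0.37 ± 0.09, edgeR adjusted p = 0.052). In KO with vehicle 4 of the 13 rose and 6 fell against WT. Ifngr1, a receptor chain for interferon gamma, had 245, 238 and 230.0 CPM in KO with vehicle, against 52.4, 56.1 and 47.2 CPM in WT with vehicle, a log2 fold change of 2.20 ± 0.08. Ifnar1, a chain of the type I receptor, had 59.3, 52.8 and 57.1 CPM in KO with vehicle, against 92.3, 86.0 and 92.7 CPM in WT with vehicle, and fell by 0.68. The KO and WT libraries of both receptors were well separated.

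Of 19 genes that sense nucleic acid or carry that signal towards interferon, 4 fell in WT cells with MJ041. Irf5, a factor of inflammatory and interferon genes, had 17.6, 15.1 and 21.3 CPM with MJ041, against 40.03, 26.6 and 36.3 CPM with vehicle (-0.93 ± 0.15, edgeR adjusted p = 0.029). Tlr3, an endosomal sensor of double-stranded RNA, had 28.1, 28.5 and 31.6 CPM with MJ041, against 44.97, 36.2 and 49.97 CPM with vehicle (-0.57 ± 0.10, edgeR adjusted p = 0.029). Neither overlapped. In KO with vehicle 1 of the 19 rose and 9 fell, and the falls included the adaptor Traf3 (-0.45) and Irf5 (-1.02).

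Of 14 tested negative regulators 3 fell in WT cells with MJ041. Samhd1, which depletes nucleotides, had 89.7, 77.8 and 99.5 CPM with MJ041, against 133, 106 and 144 CPM with vehicle (-0.52 ± 0.10, edgeR adjusted p = 0.035). Socs3, an inhibitor of JAK kinases, had 12.2, 7.94 and 15.7 CPM with MJ041, against 23.9, 19.1 and 22.7 CPM with vehicle (-0.87 ± 0.19, edgeR adjusted p = 0.042). Treated and vehicle libraries did not overlap in either gene. In KO with vehicle 2 of the 14 rose and 5 fell, among them the deubiquitinase Cyld (0.53) and the ubiquitin ligase Rnf125 (-1.21).

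Of 45 further interferon-stimulated genes 11 fell in WT cells with MJ041 and 0 rose in edgeR, and 44 had a log2 fold change below 0 (median -0.40). DESeq2 called 26 of the 45 and limma voom 13, and 37 had an unadjusted p below 0.05 in edgeR. Slfn9, of the Schlafen family, had 11.6, 12.1 and 28.3 CPM with MJ041, against 54.0, 31.6 and 68.4 CPM with vehicle (-1.56 ± 0.31, edgeR adjusted p = 0.034). Trafd1, a feedback regulator of innate signalling, fell by 0.37. In KO cells with MJ041, 0 of the 92 tested genes of these 5 lists passed in edgeR, 0 had an unadjusted p below 0.05, and DESeq2 and limma voom called 0. In KO with vehicle 10 of the 45 rose and 12 fell, a share below the 54.5% of all genes. Among those that fell were Ube2l6, the ISG15-conjugating enzyme (-0.37), and Nt5c3, a nucleotidase (-0.39). Under MJ041 24 of the 45 rose and 2 fell in KO, against 26.8% and 27.6% of all genes.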

How the data were processed

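RNA of 12 libraries of primary mouse hepatocytes was made into stranded libraries and sequenced, per the labels' protocols. The authors deposited raw counts of reads per Ensembl gene, without normalization. Tools named in the submitters' processing notes are STAR 2.7.10b, featureCounts, Trimmomatic 0.34, FastQC and DESeq2, with mm39 as the genome. Strand and multimapping settings of the counting are not given in the sources used here. Symbols were found for 52081 of the 55414 identifiers. RefSeq promoter windows belong to another build, GRCm38.p6, and were joined by symbol.

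Groups came from the genotype and treatment labels. The count filter was filterByExpr of edgeR 4.0.16 in R 4.3.3, at a minimum count of 10, followed by TMM scaling. edgeR's quasi-likelihood test was fitted on all 12 libraries together, with a term for each group, so the 4 groups shared one estimate of the spread. P-values were adjusted by the Benjamini-Hochberg method across the 14919 genes tested, and 0.05 was the threshold. The SE is the absolute log2 fold change over the root of the F statistic. Mean log2 CPM used a prior count of 2. Depth was 16740761 to 17902832 counts per library. Simulated data with known changes were used to test the scripts.

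The 39 genes, the other gene lists and the markers were chosen with earlier results of these data known. Values in every library are given for Hnf4a, for the gene with the highest mean CPM and that with the smallest p in WT with MJ041 of each role, and for the 3 genes with the smallest p in each other comparison. Per-library values of other genes, and of these genes in further comparisons, were chosen after their values were seen. The pathway lists name the 2 genes with the smallest p in WT with MJ041 and the 2 in KO against WT with vehicle; 1 gene that this rule takes is not reported here. Alternatives were DESeq2's size factors (RLE), no filter on low counts, DESeq2 1.42.0, voom of limma 3.58.1, a replicate block and a marker covariate. Others were the 2 groups alone, leaving out each library in turn, and leaving out both WT libraries with MJ041 low in non-hepatocyte markers.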

Additional observations from a re-analysis of the deposited data

How the results depend on the processing

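The number of the 39 genes called in WT with MJ041 was 18. It was 16 with RLE size factors and 20 with limma voom, but 34 without the filter on low counts and 31 with DESeq2. It was 0 with the marker covariate and 0 with the 2 groups alone (33 and 37 at an unadjusted p below 0.05 in edgeR). The fit without both WT libraries with MJ041 low in non-hepatocyte markers is given above. Leaving out 1 library gave 0 to 35. The response difference, with 0 calls in edgeR, gave 30 without the filter, 11 with DESeq2 and 0 to 26 with 1 library left out. The cause of these shifts was not tested. Shares of all genes called in the alternatives are not given, so these counts do not show whether a fit called more genes in general. In KO with MJ041 the count was 0 in every alternative run. KO against WT gave 15 to 25 calls with vehicle and 20 to 36 with MJ041 over the alternatives. The median of KO against WT with vehicle lay between -0.12 and 0.10, so its sign is not settled. Signs under the alternatives were recorded only for the genes taken by rule in each comparison, and no called value among these changed sign.

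Replicate numbers are shared between groups, and the labels do not say whether they pair libraries. Deviations from the group means of same-numbered MJ041 and vehicle libraries correlated at -0.01, 0.20 and 0.50 in WT and at 0.35, 0.46 and 0.04 in KO, over genes. Each KO library with MJ041 correlated best with the vehicle library of its own number, as did WT replicates 2 and 3 with MJ041. This is a hint from the data and not the design. For KO replicate 3 the values were close, at 0.04 with its own number and 0.0008 with vehicle replicate 1. WT replicate 1 with MJ041 correlated best with vehicle replicate 2, at 0.45. With the number as a replicate block edgeR called 29 of the 39 in WT with MJ041, 0 for the response difference, 19 in KO against WT with vehicle and 33 with MJ041. With a replicate block within each genotype, an alternative chosen after seeing the data, it called 37 in WT with MJ041 and 32 response differences.

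In the 39 genes the WT groups varied more between libraries than the KO groups, and the model gave all 4 groups one spread. The spread of the groups over all genes was not compared. Reads shared between close paralogs were not separated.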

Other observations

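Among the 45 further interferon-stimulated genes, Trim30d, a relative of Trim30a, differed between replicates of KO cells more than between treatments. It was chosen after its values were seen. It had 42.3, 2.06 and 21.3 CPM in KO replicates 1 to 3 with MJ041, and 43.0, 2.44 and 17.2 CPM in KO replicates 1 to 3 with vehicle, so that replicate 2 was the lowest under both treatments. WT libraries had 0.742, 1.05 and 3.43 CPM with MJ041, and 3.87, 2.03 and 4.58 CPM with vehicle. Trim34a had the same order among KO libraries, with 18.4, 6.69 and 13.1 CPM with MJ041 and 15.4, 7.09 and 12.1 CPM with vehicle, and Slfn8 likewise, with 19.6, 9.84 and 13.6 CPM with MJ041 and 15.8, 8.20 and 13.7 CPM with vehicle. The levels of these 3 genes thus went with the replicate number in KO cells, and the labels do not say what that number marks. In the 39 genes described above, KO replicate 2 was the lowest of its group for 21 with MJ041 and for 6 with vehicle. This order was likewise not counted over all genes.

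The 14 genes with GAAA, any 2 bases and GAAA in the promoter window (either strand) had a median log2 fold change of -0.86 in WT with MJ041, and the 15 whose window did not hold these letters had -0.52. These medians are given as a description, without a test.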
